A study of Homo sapiens with 4 samples.

Results

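The genes described here encode enzymes and controllers of fatty acid synthesis and oxidation, chosen by gene symbol from the count table. All 9 named genes (FASN, ACACA, SCD, ELOVL6, ACLY, CPT1A, PLIN2, ANGPTL4 and PDK4) had a row among 42169 genes. RNA was sequenced from Huh7, an established hepatoma line of human origin. The compared cells were a control clone (clone 1, labelled WT) and a clone labelled Brf1/TTP DKO (clone 18), named here DKO, with 2 libraries each. All cells were kept in DMSO for 3 h, followed by 10 min with the transcription inhibitor actinomycin D (5 µg/ml), so no untreated cells enter any comparison. TTP and BRF1 are the RNA-binding proteins encoded by ZFP36 and ZFP36L1, which bind AU-rich sites in 3′ UTRs and promote decay of the mRNA. Each genotype was a single clone, so genotype and clone cannot be told apart.

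In fatty acid synthesis, ACLY makes cytosolic acetyl-CoA from citrate, ACACA carboxylates it to malonyl-CoA, and FASN builds palmitate from both. ELOVL6 then lengthens palmitate and SCD introduces a double bond. Malonyl-CoA blocks CPT1A, the enzyme that commits long-chain fatty acids to mitochondrial oxidation, so synthesis and oxidation are held in opposition. In liver the transcription factors SREBP1c (from SREBF1), ChREBP (from MLXIPL) and LXR drive the synthesis genes, whereas PPAR receptors that sense fatty acids drive CPT1A, PLIN2, ANGPTL4 and PDK4.

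No gene among the 9 passed the test in either direction. The deposited counts were tested with edgeR's quasi-likelihood test over 13359 genes, and a gene was called at a Benjamini-Hochberg adjusted p under 0.05. Of the members, 8 were tested, and PDK4 had too few counts to be kept. The count of called members was 0 by edgeR, 0 by DESeq2 and 0 by limma-voom, against 5.37% of all genes tested with edgeR (2.24% higher and 3.14% lower in DKO). At an unadjusted edgeR p under 0.05, 1 of 8 members (FASN) was lower and 0 were higher, against 20.2% of all genes tested. The median log2 fold change of the members, DKO over control, was -0.10, beside 0.0015 over all genes tested. For 4 of the 8 members control and DKO libraries did not overlap (FASN, ACACA, PLIN2 and ANGPTL4), all with DKO below control. Over all genes tested, 49.8% did not overlap, with DKO above in 25% and below in 24.8%.

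Gene counts per library ran from 9685798 to 16430228. A count of 3 equalled 0.186 to 0.302 CPM, where CPM is counts per library size after scaling by TMM factors. The 10 hepatocyte markers were all above 1 CPM, and their sum ran from 27185 to 28084 CPM (unscaled library totals, as for all marker sums) in control and from 25915 to 29240 CPM in DKO. Within that sum 2 of the 10 were called in opposite directions, AFP lower (log2 fold change -1.13, edgeR adjusted p = 0.0159) and TTR higher (0.78, edgeR adjusted p = 0.0297). Of 6 adipocyte markers, ADIPOQ, LEP, CIDEA and FABP4 were at 0 counts in all 4 libraries, and the summed level of the 6 ran from 0 to 0.320 CPM in control and from 0.0974 to 0.122 CPM in DKO. The 4 endothelial markers were at 0. Of 5 leukocyte markers, CD3E was at 0 and the sum of the 5 lay between 0.720 and 0.826 CPM in control and between 1.07 and 1.28 CPM in DKO. Fibroblast and stellate markers (6 genes, none at 0) summed to 87.7 and 134 CPM in control and 128 and 127 CPM in DKO. Neither targeted gene had less mRNA in DKO, so their mRNAs do not check the labels. ZFP36 measured 29.3 and 23.8 CPM in control against 37.2 and 36.9 CPM in DKO, and ZFP36L1 measured 132 and 111 CPM against 146 and 120.3 CPM. The edgeR adjusted p was 0.207 for ZFP36 and 0.775 for ZFP36L1. Nothing in the labels says that a clone was cultured separately for each library, so p-values reflect library spread that may be technical.

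The letters TATTTAT, the DNA form of the AU-rich heptamer that ZFP36 proteins bind, were searched on the transcript strand in the longest annotated 3′ UTR of each gene (GENCODE 29, hg38). They were found in 5 of the 9 members, among them PDK4, which was not tested. Of the 11885 tested genes with an annotated 3′ UTR, 36.0% held them. Each site is printed with its neighbours to 30 bases, the heptamer in capitals, because TTP and BRF1 are known to bind such letters. All lie on the minus strand and are written 5′ to 3′ along the transcript.
FASN, chr17:82078802-82078831: ttggatttgcaTATTTATtgcattgctggt
ACACA, chr17:37087084-37087113: accccattcagTATTTATtaccctggccag
ACACA, chr17:37086405-37086434: tggaaactagtTATTTATgccatgtggaga
ACLY, chr17:41867534-41867563: gctacctgctgTATTTATtatatggaagca
ACLY, chr17:41867064-41867093: tatgttctctgTATTTATgcagctgatttg
CPT1A, chr11:68756242-68756271: tttaaattgtgTATTTATttttttgaccac
PDK4, chr7:95585143-95585172: cattttgaacaTATTTATgtgctatggaag

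The site of FASN begins at base 323 of an 810-base 3′ UTR, those of ACACA at bases 214 and 893 of 2328, and those of ACLY at bases 258 and 728 of 902. The CPT1A site begins at base 1384 of 2755 and the PDK4 site at base 480 of 2142. No match was found in the 3′ UTRs of SCD (3901 bases), ELOVL6 (5492 bases), PLIN2 (478 bases) or ANGPTL4 (487 bases). The shorter letters ATTTA, which lie within the heptamer, occurred 12 times in ELOVL6 and 3 times in SCD. In all, 7 of the 9 members held ATTTA, the untested PDK4 included, beside 74.2% of tested genes with a 3′ UTR. Neither PLIN2 nor ANGPTL4 held ATTTA. None of the tested members with a heptamer was higher in DKO by the test. Over the 11885 tested genes with an annotated 3′ UTR, the median log2 fold change was 0.04 with the heptamer and -0.03 without it. In the same order 4.91% and 6.08% were called. These values are given as a description, and a difference between the groups was not tested.

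On a scale that allows genes to be compared (CPM per kilobase of annotated exon), the 9 genes spanned a wide range and had the same rank order in both clones. SCD stood at 300.0 in control and 309 in DKO, and FASN at 273 and 184. ACLY followed at 118 in both clones, then PLIN2 at 38.9 and 30.2, ACACA at 16.6 and 14.6, and ELOVL6 at 6.42 and 6.39. CPT1A stood at 3.38 and 3.60, ANGPTL4 at 1.46 and 0.992, and PDK4 at 0.201 and 0.130. The plot of levels by library shows these steps. SCD and FASN overlapped in the control libraries (277 to 323 against 225 to 321) and did not in the DKO libraries (304 to 313 against 178 to 190). Each other pair of neighbours in the order was separated in all 4 libraries. The 5 synthesis genes together took 0.481% and 0.528% of all gene counts in control and 0.420% and 0.422% in DKO, and FASN alone accounted, in the same order, for 0.216%, 0.294%, 0.168% and 0.175%.

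**Figure D1:**
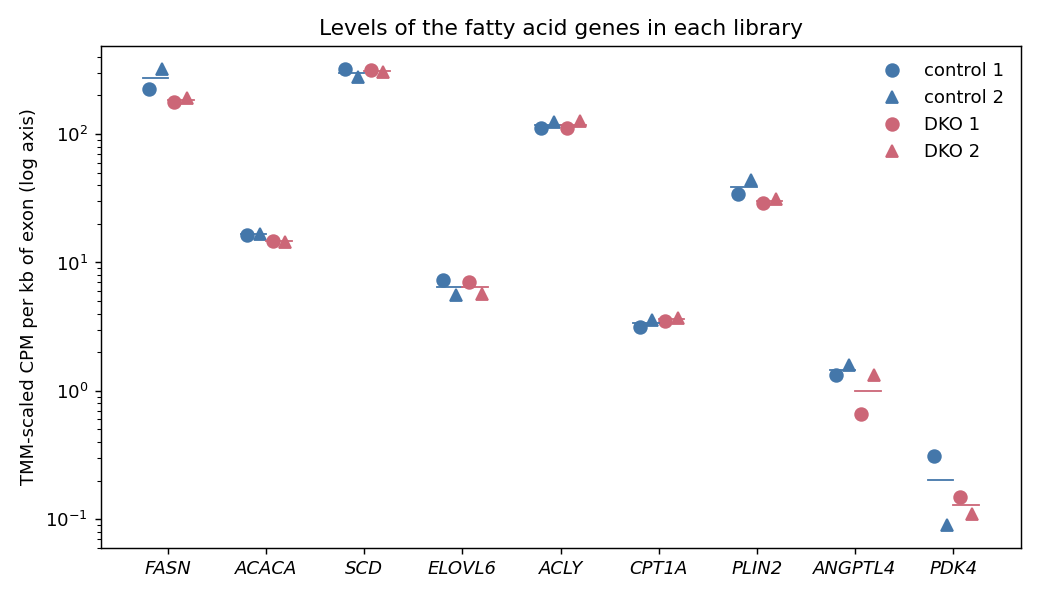
TMM-scaled CPM per kilobase of exon (log axis) for each gene in the 2 control (blue) and 2 DKO (red) libraries, with circles for replicate 1, triangles for replicate 2 and short lines for the clone means. FASN, ACACA, PLIN2 and ANGPTL4 have both DKO points below both control points, and PDK4 has the widest spread between control libraries.

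Among the synthesis genes, FASN had the lowest value in DKO relative to control. FASN (chromosome 17, 82078333 to 82098332, hg38) measured 2108 and 3004 CPM in control and 1663 and 1779 CPM in DKO. Both DKO libraries lay below both control libraries, and the control libraries were 1.42-fold apart. The mean was 2556 ± 633 CPM in control and 1721 ± 82.4 CPM in DKO (SD, n = 2). The log2 fold change was -0.57 (SE 0.25, 95% interval -1.10 to -0.04), which did not pass (edgeR adjusted p = 0.208). A change at least this large, in either direction, was fitted for 19.4% of the tested genes. The log2 fold change of FASN was -0.81 without control replicate 1 and -0.30 without control replicate 2. With each library's trend over GC content and length removed, the value was -0.17 (edgeR adjusted p = 0.545). The FASN transcript is 65.3% GC, the highest of the 9, and its 42 nearest tested neighbours on the chromosome had a median of -0.24, with 0 called.

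ACLY and ACACA, which supply FASN, had smaller values. ACLY (chromosome 17, 41866908 to 41930542) measured 584 and 645 CPM in control against 579 and 656 CPM in DKO, and the ranges overlapped almost fully. Its log2 fold change was 0.0062 (SE 0.21, 95% interval -0.44 to 0.45, edgeR adjusted p = 0.991). ACACA (chromosome 17, 37084988 to 37406818), the first committed enzyme, measured 213 and 218 CPM in control and 190 and 189 CPM in DKO. The clones were separated although the gap was small, at a log2 fold change of -0.19 (SE 0.19, 95% interval -0.58 to 0.21, edgeR adjusted p = 0.629). The value for ACACA was -0.07 with GC and length trends removed. FASN, ACACA and ACLY share chromosome 17 but lie far apart on it, and the 50 tested neighbours of ACACA and ACLY had medians of 0.02 and 0.04.

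The enzymes that modify palmitate did not differ in a direction that held across libraries. SCD (chromosome 10, 100347124 to 100364834) measured 1733 and 1484 CPM in control and 1681 and 1632 CPM in DKO. The DKO libraries lay between the control libraries, with a log2 fold change of 0.04 (SE 0.23, 95% interval -0.44 to 0.53, edgeR adjusted p = 0.943). ELOVL6 (chromosome 4, 110045846 to 110199199) measured 53.2 and 40.5 CPM in control and 51.5 and 41.7 CPM in DKO. In both clones replicate 1 was the higher library, and the log2 fold change was -0.0078 (SE 0.21, 95% interval -0.46 to 0.44, edgeR adjusted p = 0.989). These intervals leave room for changes in either direction, so equal levels were not shown. The processed pseudogene SCDP1, which resembles SCD, was not analysed here.

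Ratios within a library do not depend on how libraries are scaled, but they keep any trend of a library over GC content. The FASN transcript is 65.3% GC, against 47.1% for SCD, 52.2% for ACLY, 48.7% for ACACA, 41.2% for ELOVL6 and 48.9% for PLIN2. Removing GC and length trends took FASN from -0.57 to -0.17, and the ratios were not corrected for these trends. FASN over SCD, each per kilobase, was 0.697 and 1.16 in control and 0.567 and 0.625 in DKO. FASN over ACLY was 2.01 and 2.59 in control and 1.599 and 1.51 in DKO. FASN over ACACA was 13.7 and 19.2 against 12.1 and 13.1, and FASN over PLIN2 was 6.62 and 7.34 against 6.10 and 6.10. In these 4 ratios both DKO libraries lay below both control libraries, by 0.60, 0.55, 0.36 and 0.19 log2 units. All of them contain the same FASN counts, and FASN itself was separated with DKO below control, so they are no separate support. The share of other gene pairs with separated ratios was not computed. FASN over ELOVL6 overlapped, at 30.9 and 57.9 in control and 25.2 and 33.3 in DKO. With 2 libraries against 2, a two-sided exact permutation test cannot give a p below 0.333, which is the value for each of the 4 separated ratios.

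**Figure D2:**
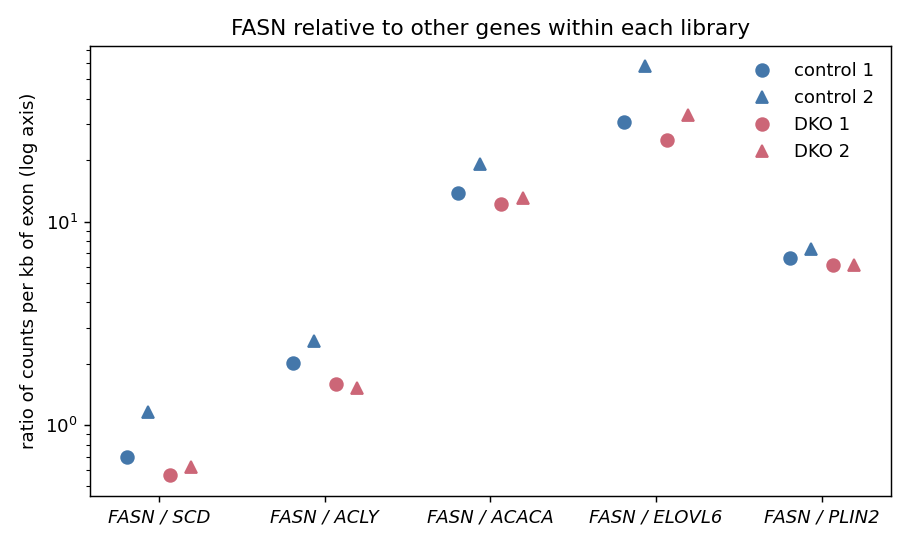
Counts per kilobase of FASN over those of SCD, ACLY, ACACA, ELOVL6 and PLIN2 within each library (log axis), with control in blue, DKO in red, circles for replicate 1 and triangles for replicate 2. The DKO points lie below the control points in all ratios but FASN over ELOVL6, and control replicate 2 is the highest point of each.

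CPT1A (chromosome 11, 68754620 to 68844410), the gate to mitochondrial oxidation, measured 20.8 and 23.6 CPM in control and 23.1 and 24.2 CPM in DKO. The libraries overlapped, and the log2 fold change was 0.09 (SE 0.21, 95% interval -0.36 to 0.55, edgeR adjusted p = 0.857). CPT1A was the tested member with the highest value, and its 50 tested neighbours had a median of 0.20. The muscle and brain forms CPT1B and CPT1C had 17 and 12 counts over the 4 libraries together and were not tested. CPT2, the partner enzyme on the inner membrane, measured 27.7 ± 2.83 CPM in control and 23.6 ± 0.826 CPM in DKO (SD, n = 2), with a log2 fold change of -0.23 (edgeR adjusted p = 0.579).

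PLIN2 (chromosome 9, 19108375 to 19149290), which coats lipid droplets, measured 173 and 222 CPM in control and 148 and 159 CPM in DKO. Both DKO libraries were below both control libraries, and the log2 fold change was -0.37 (SE 0.20, 95% interval -0.79 to 0.06, edgeR adjusted p = 0.319). It was -0.18 without control replicate 2 and -0.54 without control replicate 1. With GC and length trends removed, PLIN2 stood at -0.34 (edgeR adjusted p = 0.105). PLIN3, a coat protein of small droplets, had a log2 fold change of 0.16 (edgeR adjusted p = 0.755), and HILPDA, a lipase inhibitor on droplets, had -0.40 (edgeR adjusted p = 0.429).

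ANGPTL4 and PDK4 were scarce, and counting error weighed on both. ANGPTL4 (chromosome 19, 8363289 to 8374373) encodes a secreted inhibitor of lipoprotein lipase. It had 33 and 48 counts in control and 17 and 53 in DKO, that is 3.32 and 3.92 CPM against 1.64 and 3.28 CPM. The low library was DKO replicate 1, whose exact Poisson 95% interval of 0.957 to 2.63 CPM covers counting error only, as do all such intervals here. The log2 fold change was -0.51 (SE 0.37, 95% interval -1.30 to 0.28, edgeR adjusted p = 0.473). Without DKO replicate 1 it was -0.14, and without DKO replicate 2 it was -1.14. The antisense gene RAB11B-AS1 overlaps ANGPTL4 and had 15, 17, 15 and 28 counts in the same order, and the strand setting of the counting is unknown here.

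PDK4 (chromosome 7, 95583499 to 95596491) encodes a kinase that shuts off pyruvate dehydrogenase when fat is burned. It had 14 and 5 counts in control and 7 and 8 in DKO, that is 1.41 and 0.408 CPM against 0.676 and 0.496 CPM. Both DKO libraries lay between the control libraries, so no difference in PDK4 was detectable at this depth. The exact Poisson 95% intervals were 0.771 to 2.37 and 0.132 to 0.952 CPM for the control libraries and 0.272 to 1.39 and 0.214 to 0.977 CPM for the DKO libraries. The related kinases PDK1, PDK2 and PDK3 were tested and none passed, at log2 fold changes of 0.34, -0.72 and 0.15 (edgeR adjusted p = 0.502, 0.227 and 0.803).

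**Figure D3:**
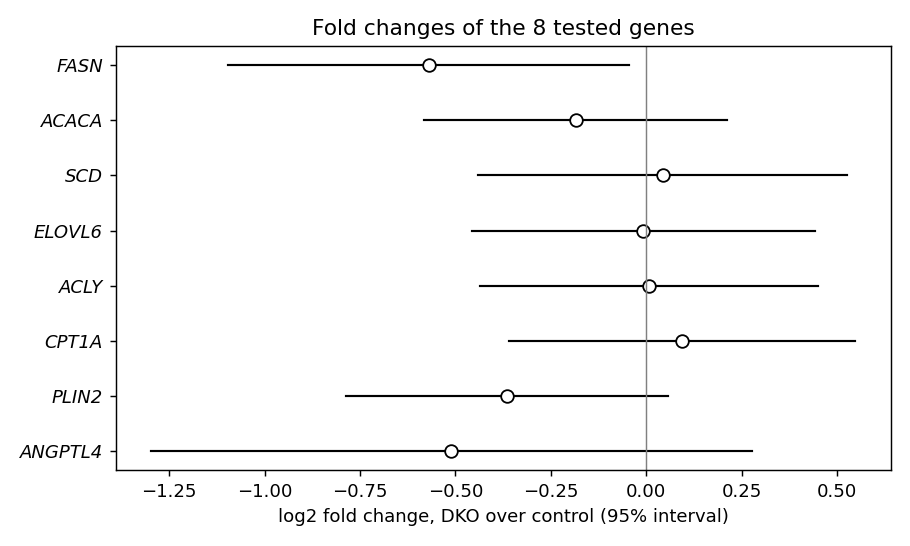
Log2 fold change of DKO over control for the 8 tested genes (circles) with 95% intervals from edgeR's quasi-likelihood fit (lines). The intervals of all genes but FASN include 0, and no gene passed after adjustment over 13359 genes.

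Scaling to the ERCC spike-ins in place of TMM shifted the median of all genes by -0.68, so that every tested member had a negative value. The spike-ins took 1.47% and 0.946% of counts in control and 1.62% and 2.10% in DKO, so their share also differed between libraries of the same clone. Relative to that shift the members kept to the pattern above, with FASN at -0.63, ANGPTL4 at -0.61, PLIN2 at -0.41 and ACACA at -0.19. SCD, ELOVL6, ACLY and CPT1A lay between -0.02 and 0.07. None passed on this scale. The plot of fold changes under each alternative shows where the members moved with a library or a correction.

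**Figure D4:**
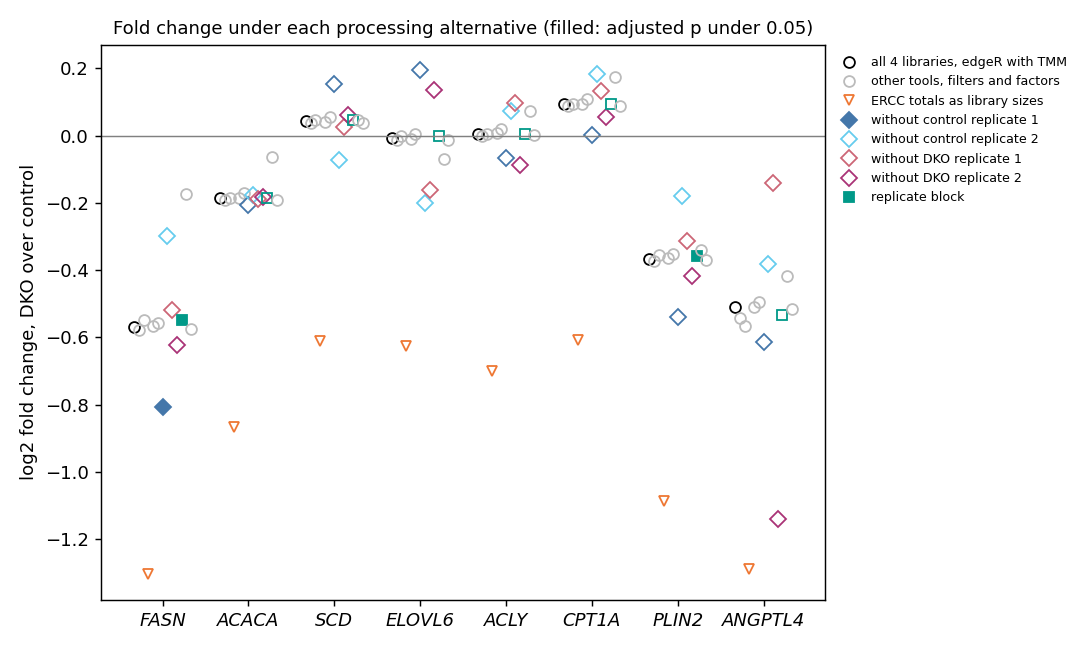
Log2 fold change of DKO over control for the 8 tested genes under each processing alternative, one point per alternative, filled where the adjusted p is under 0.05. Filled points occur for FASN without control replicate 1 and, in the fit blocked on replicate number, for FASN and PLIN2, and the spike-in points are shifted downward for every gene.

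Beyond the 9 genes, 8 lists of related lipid genes held 145 genes, of which 122 were tested. Of these, 4 rose, 7 fell and 111 did not pass, which is 9.02% called against 5.37% of all genes tested, with a median log2 fold change of -0.05. In fits with 1 library left out, the count of called genes moved both in the lists and over all genes tested. The dependence on single libraries is therefore not particular to the lists. Of the 11 called genes, TXNIP alone passed in all 4 of these fits. Without control replicate 2, FADS1 and PNPLA3 were lost. Without DKO replicate 1, TXNIP, UCP2 and PPARGC1B passed, and without DKO replicate 2, TXNIP and ACAA1 did. DESeq2 called neither PNPLA3 nor PDP1. On the spike-in scale 3 of the 11 passed, among them PDP1 and PPARGC1B.

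Of 17 tested genes of synthesis, elongation and desaturation, 1 rose, 0 fell and 16 did not pass. The median was 0.14, and 12 values were positive, beside 6699 of 13359 over all genes tested. With GC and length trends removed, 9 of the 17 were positive, 5 were called higher and 1 lower. That is 35.3% called, beside 15.5% of all genes tested in the same fit. FADS1, the delta-5 desaturase of polyunsaturated fatty acids, rose from 197 ± 41.3 to 344 ± 4.22 CPM (SD, n = 2; log2 fold change 0.80, edgeR adjusted p = 0.0335). FADS1 overlaps FADS2 on the other strand, so part of its reads may be uncertain. FADS2, the delta-6 desaturase, had 0.37 (edgeR adjusted p = 0.377), and ELOVL5, which elongates the same fatty acids, had 0.05 (edgeR adjusted p = 0.915). ACACB, the mitochondrial relative of ACACA whose malonyl-CoA restrains CPT1A, measured 15.0 ± 3.18 CPM in control and 8.58 ± 2.76 CPM in DKO (SD, n = 2), with a log2 fold change of -0.82 that did not pass (edgeR adjusted p = 0.104).

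Of 16 regulators of lipid synthesis 0 passed by edgeR, with a median of -0.07. Without adjustment, 3 were higher and 1 lower at an edgeR p under 0.05, and DESeq2 and limma-voom each called 0. SREBF1 was the lower one, at 147 ± 27.4 CPM in control and 108 ± 0.325 CPM in DKO (SD, n = 2), a log2 fold change of -0.45 (edgeR adjusted p = 0.215). SREBF1 stood at -0.63 without control replicate 1 and at -0.26 without control replicate 2. Its value was -0.14 once GC and length trends were removed. MLXIPL was scarce, at 1.44 ± 0.533 CPM in control and 0.983 ± 0.250 CPM in DKO (SD, n = 2; edgeR adjusted p = 0.561). The smallest adjusted p belonged to PRKAG1, a subunit of the energy sensor AMPK, at a log2 fold change of 0.70 (edgeR adjusted p = 0.0547).

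Of 27 tested genes of fatty acid oxidation, 0 rose, 3 fell and 24 did not pass, with a median of -0.24 and 6 positive values. ACAA1, the thiolase of peroxisomal oxidation, fell from 197 ± 25.5 to 98.0 ± 14.7 CPM (SD, n = 2; log2 fold change -1.01, edgeR adjusted p = 0.00975). EHHADH, a bifunctional enzyme of the same peroxisomal pathway, fell from 30.4 ± 8.09 to 15.7 ± 2.44 CPM (SD, n = 2; -0.96, edgeR adjusted p = 0.0326). HSD17B4, another peroxisomal enzyme, had a value of -0.14 (edgeR adjusted p = 0.730). The median of this list was -0.23 without DKO replicate 1 and -0.44 without control replicate 1. Over all genes tested the medians were -0.0092 and 0.012 in the same order.

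Of 16 tested PPAR receptors, coactivators and target genes, 2 rose, 1 fell and 13 did not pass, with a median of -0.09. TXNIP, which restrains glucose uptake, rose from 3.55 ± 1.10 to 13.7 ± 2.21 CPM (SD, n = 2; log2 fold change 1.95, edgeR adjusted p = 0.00145). UCP2, a mitochondrial carrier, rose from 28.3 ± 1.90 to 58.7 ± 3.37 CPM (SD, n = 2; 1.05, edgeR adjusted p = 0.00663). PPARGC1B, a coactivator of mitochondrial and lipid genes, fell from 17.2 ± 0.270 to 7.37 ± 2.01 CPM (SD, n = 2; -1.24, edgeR adjusted p = 0.0125). The receptor PPARA had a log2 fold change of -0.01 (edgeR adjusted p = 0.984), with 14.4 ± 2.53 CPM in control and 14.3 ± 2.67 CPM in DKO (SD, n = 2).

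In the remaining lists few genes passed. PNPLA3, a lipase of lipid droplets, fell from 12.5 ± 1.52 to 6.33 ± 1.03 CPM (SD, n = 2; log2 fold change -0.97, edgeR adjusted p = 0.0417) as 1 of 20 tested droplet genes, whose median was 0.09. LIPG, the endothelial lipase, rose from 47.2 ± 0.0561 to 94.9 ± 1.24 CPM (SD, n = 2; 1.01, edgeR adjusted p = 0.00680), and LIPC, the hepatic lipase, fell from 90.7 ± 10.9 to 49.5 ± 3.87 CPM (SD, n = 2; -0.87, edgeR adjusted p = 0.0185). They were 2 of 6 tested lipase genes, with a median of 0.38. PDP1, the phosphatase that opposes PDK4, fell from 9.51 ± 1.80 to 4.24 ± 0.665 CPM (SD, n = 2; -1.15, edgeR adjusted p = 0.0292) as 1 of 13 pyruvate dehydrogenase genes, whose median was 0.0055. Of the 7 tested genes on the acyl-CoA synthetase list 0 passed by edgeR, DESeq2 or limma-voom. Within that list 1 was higher at an unadjusted edgeR p under 0.05, namely ACSL1 (0.53, edgeR adjusted p = 0.149). ACSL3, an acyl-CoA synthetase counted in the PPAR list, was also higher by that measure but did not pass (0.53, edgeR adjusted p = 0.135). ACSL3 measured 317 ± 2.63 CPM in control and 457 ± 21.6 CPM in DKO (SD, n = 2), and the clones did not overlap.

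**Figure D5:**
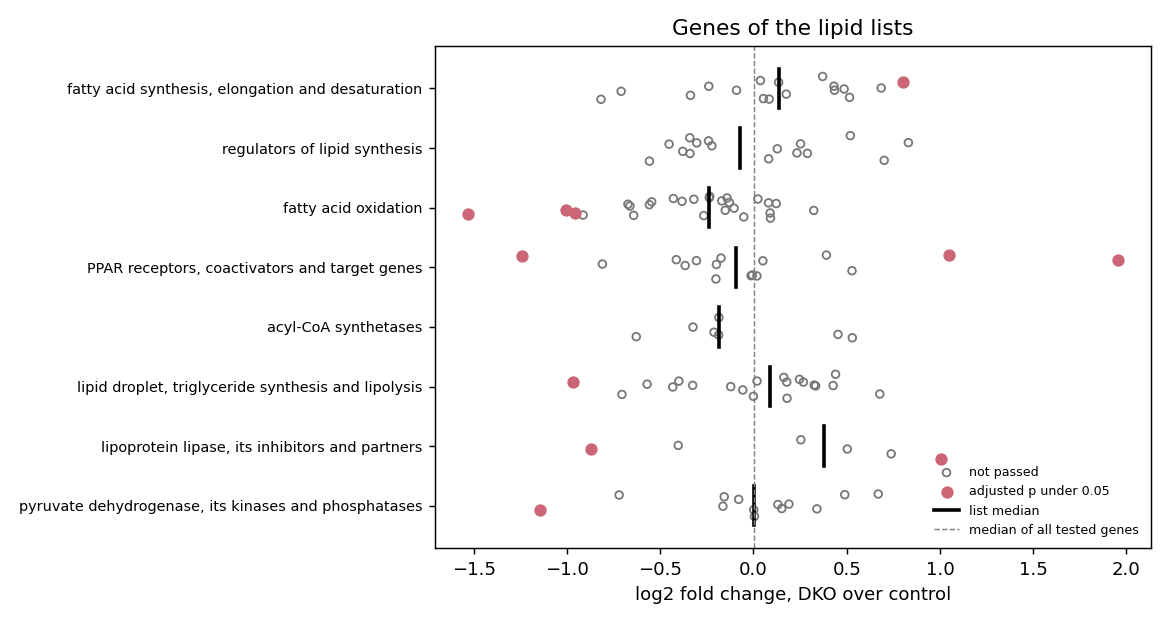
Log2 fold change of DKO over control for every tested gene of the 8 lipid lists (open circles), with genes past the adjusted threshold filled, black bars for list medians and a dashed line for the median of all tested genes. The 3 filled oxidation genes are all to the left, and TXNIP is the filled point farthest to the right.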

How the data were processed

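The authors deposited 1 table of raw read counts per gene and library. The submitters' processing notes name STAR 2.5.3a, featureCounts from Subread 1.6.3, DESeq2 and the build hg38. The annotation, strand setting and rule for multi-mapping reads were not given in the sources used here. The 92 ERCC rows entered neither library sizes nor the main test.

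Counts were tested in R 4.3.3 with edgeR 4.0.16 (filterByExpr, TMM, quasi-likelihood, all 4 libraries, group only). Alternatives were DESeq2 1.42.0, limma-voom (limma 3.58.1), ERCC totals, upper-quartile factors, no filter, each library left out, the replicate number as a block, removed GC and length trends (loess offsets), and mitochondrial genes left out. Standard errors are the log2 fold change over the root of F, and 95% intervals use the fit's degrees of freedom. Positions, exon lengths and 3′ UTRs are from GENCODE 29, in which 40718 gene rows (96.6%) matched 1 gene. On 3 simulated sets of 13359 genes, 59.3% of changes of 1 log2 unit and 96.9% of changes of 2 were recovered, and 3.34% of calls were unchanged genes.

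The members and lists were chosen with earlier results of these data known. Named genes are the members, the targeted genes, listed relatives and regulators, and in each list the genes past the threshold or else the one with the smallest adjusted p. HSD17B4, CPT1B, CPT1C, ACSL3, ANGPTL8 and the genes at 0 were named after their values were seen. Some genes included in the counts are not reported here by name. Replicate libraries differed beyond sampling noise (chi-square per degree of freedom 33.6 in control and 27.1 in DKO).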

Additional observations from a re-analysis of the deposited data

How the results depend on the processing

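Over 12 alternatives, 96 values of the tested members gave 83 on the same side of 0 and of the threshold, 10 of opposite sign and 3 that newly passed. With ERCC totals, SCD (-0.61), ACLY (-0.70) and CPT1A (-0.61) turned negative, 329 genes were called (22 higher and 307 lower, against 299 and 419) and 3 list genes. Signs near 0 also turned for ACLY with DESeq2 (-0.00028) and ELOVL6 without a filter (0.0057). In fits without 1 library, SCD ran from -0.073 (without control replicate 2) to 0.15, ELOVL6 from -0.20 to 0.20, and ACLY from -0.089 to 0.10. In those fits 218 to 2172 genes, 2 to 30 list genes and 0 to 1 members were called, against 718, 11 and 0. Without a filter 1194 genes and 19 list genes were called, and with GC and length trends removed 2064 and 35.

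Blocking on the replicate number (replicate block), 4021 genes, 52 list genes and 2 members were called: FASN (-0.55, edgeR adjusted p = 0.00029) and PLIN2 (-0.36, edgeR adjusted p = 0.0147). Deviations of same-numbered libraries correlated at 0.470, but the labels state no pairing. Depth limited PDK4 and ANGPTL4.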

Other observations

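Several lipid genes of the lists were at 0 counts in all 4 libraries: the lipase LPL, its anchor GPIHBP1, the hormone FGF21, the fatty acid hydroxylase CYP4A11, the lipogenic factor THRSP and the fatty acid carrier FABP4. A count of 0 allows up to 3 counts, or 0.183 to 0.310 CPM of unscaled library totals, counting error only. ANGPTL8, an inhibitor of lipoprotein lipase, had 2 counts over the 4 libraries together.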
